A study of Homo sapiens with 2 samples.

Results

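The interferon-stimulated antiviral genes described here are 52 genes, comprising 39 effectors, 4 RNA sensors and 9 ubiquitin-like or poly(ADP-ribose) polymerase (PARP) modifiers. Members were taken as every probe set whose platform annotation gives exactly 1 gene symbol that is on the list. All 52 had such a probe set, with 113 probe sets between them, out of 41097 single-gene probe sets for 19775 genes. The values come from the human lung adenocarcinoma line CL1-5, a highly invasive subline, on 2 whole-transcriptome Affymetrix arrays. A culture received 0.11 µM analogue 3, a desmosdumotin C derivative with iodo, propyl and methoxy substituents, for 24 h, and the other received the solvent DMSO for the same time. With 1 array per group, none of the differences below could be checked against replicates or tested. A lower value in such a bulk sample cannot be told apart as fewer expressing cells or less RNA per cell.

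Type I and type III interferons bind receptors that activate Janus kinases, and the kinases phosphorylate STAT proteins. Together with IRF9 these form a complex that binds a short promoter element, the interferon-stimulated response element (ISRE). The genes it switches on block virus entry, degrade or edit viral RNA, detect viral RNA, or attach the ubiquitin-like protein ISG15 to other proteins. Tumour lines can carry such transcripts without added interferon.

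Intensities are linear and given as multiples of the array median. A floor of 32 (log2 of 5) was set under both arrays, so that a gene was measured when at least 1 array reached it, and its floored log2 difference is analogue 3 minus DMSO. The brightest probe set stood for each gene. Where only the DMSO array reached the floor, the fold is a bound and is written "at least". Of the 52 genes, 21 reached the floor on both arrays, 10 reached it on the DMSO array only, none on the analogue 3 array only, and 21 lay under it on both. The 10 could enter only by being higher with DMSO, so counts and medians that include them are a description.

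Most transcripts of this antiviral program that were measured on both arrays were lower in cells treated with analogue 3. The 21 genes so measured comprised 17 effectors, 1 RNA sensor and 3 modifiers. Of the 21 genes measured on both arrays, 12 were at least 2-fold lower and none was at least 2-fold higher. Among all 4288 genes measured on both arrays, 2.33% were at least 2-fold lower and 3.38% at least 2-fold higher. The median log2 difference of the 21 was -1.18, or 2.26-fold lower, against 0.00 for all 4288, and 20 of the 21 lay below 0, where 50.2% of the 4288 did. In the order of all 4288 differences from the lowest up, MX1 stood at place 3, IFIT3 at 4, IFI35 at 10 and OAS1 at 11. LAP3, at place 2474, was the member with the highest difference. With the 10 genes that reached the floor only with DMSO, 17 of 31 were at least 2-fold lower, where 2.67% of the 5050 measured genes were, and none was at least 2-fold higher, where 3.47% were. With no floor, 39 of 52 were at least 2-fold lower, where 3.66% of all 19775 genes were, and none was at least 2-fold higher, where 2.40% were; 50 of 52 lay below 0, where 52.2% of all genes did.

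**Figure D1:**
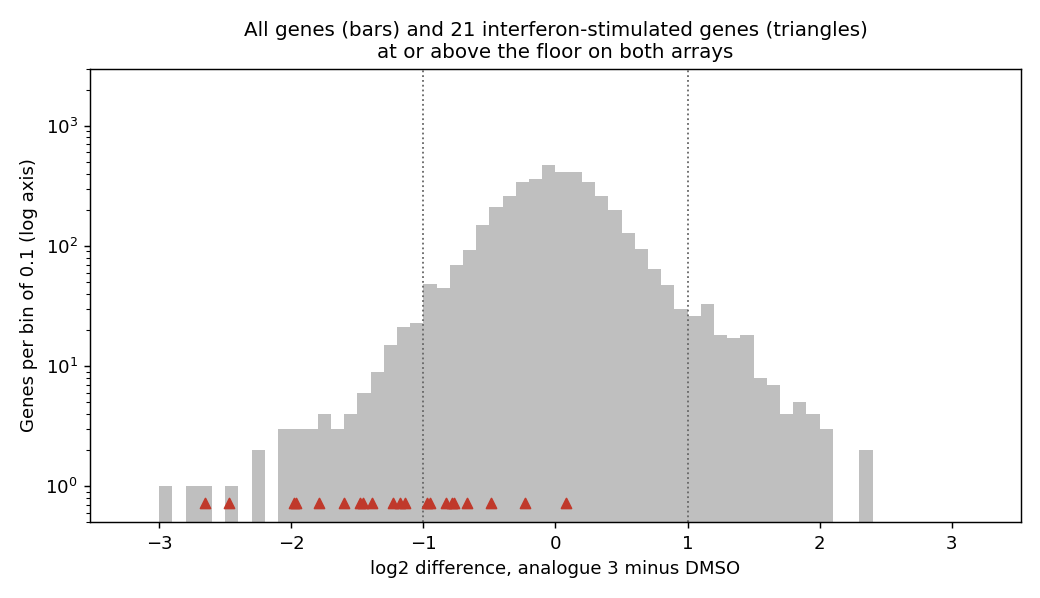
Log2 difference (analogue 3 minus DMSO, horizontal axis) of the 4288 genes measured on both arrays, as genes per bin on a log axis, with the 21 interferon-stimulated genes as triangles; dotted lines mark 2-fold. All triangles but that of LAP3 (0.08) lie below 0, and 12 lie beyond the left dotted line.

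Sequence before the gene start was examined next. The list holds interferon-stimulated genes, so a high share of ISRE matches could be expected from how it was drawn. That share is therefore a description of the list and does not bear on the effect of analogue 3. RefSeq promoter sequences (GRCh38.p14, 250 bases before to 50 after the gene start) matched 43 of the 52 genes. The ISRE core was searched on both strands as GAAA, any 2 bases, GAAA, and in a shorter form with a spacer of 1 base. Either form was present in 34 of 43 promoters (79.1%), against 6.40% of all 35116 promoters and 5.67% of the 15843 protein-coding ones. The longer form alone was in 28 of 43 (65.1%), against 3.57% of all promoters, and the shorter form in 14 (32.6%), against 3.12%. The gamma-activated sequence, searched as TTC, any 3 bases, GAA, whose reverse complement is the same motif, was in 10 of 43 (23.3%), against 7.66%. Matches of these motifs can overlap. The following stretches are the 160 bases just upstream of the gene start, 5′ to 3′ on the gene's strand, with ISRE matches of either form in capitals. They show members with several matches (ISG15, IFIT1, IFI6, RSAD2), the IFITM1 and IFITM3 paralogs, and ADAR, with no match in the stretch searched. Only sequence around the RefSeq gene start was searched. A match at another transcript start, such as that of a further form of ADAR, would be missed.
ISG15: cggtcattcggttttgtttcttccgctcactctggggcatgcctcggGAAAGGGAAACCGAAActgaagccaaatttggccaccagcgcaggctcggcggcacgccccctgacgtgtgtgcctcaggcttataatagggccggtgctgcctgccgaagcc
IFIT1: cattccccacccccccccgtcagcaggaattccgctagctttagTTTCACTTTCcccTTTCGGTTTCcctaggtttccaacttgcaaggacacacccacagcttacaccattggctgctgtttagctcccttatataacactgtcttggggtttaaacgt
IFI6: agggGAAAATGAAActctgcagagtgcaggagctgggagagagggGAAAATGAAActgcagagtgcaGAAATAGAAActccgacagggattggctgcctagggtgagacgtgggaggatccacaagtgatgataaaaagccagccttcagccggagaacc
RSAD2: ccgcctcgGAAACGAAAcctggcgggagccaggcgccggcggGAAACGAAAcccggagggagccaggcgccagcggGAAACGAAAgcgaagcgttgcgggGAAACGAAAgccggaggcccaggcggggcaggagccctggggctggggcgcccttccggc
IFITM1: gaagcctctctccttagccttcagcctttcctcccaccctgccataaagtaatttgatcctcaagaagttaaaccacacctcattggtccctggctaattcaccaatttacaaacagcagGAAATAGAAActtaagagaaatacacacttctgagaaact
IFITM3: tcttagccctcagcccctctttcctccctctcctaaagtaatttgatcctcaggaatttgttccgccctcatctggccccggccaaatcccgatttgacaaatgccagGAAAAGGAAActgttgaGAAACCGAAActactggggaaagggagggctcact
ADAR: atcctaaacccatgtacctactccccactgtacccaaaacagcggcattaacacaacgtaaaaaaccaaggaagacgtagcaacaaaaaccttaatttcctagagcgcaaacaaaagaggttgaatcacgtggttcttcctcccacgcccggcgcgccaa
These lie at chr1:1013337-1013496 (plus strand), chr10:89392463-89392622 (plus), chr1:27672193-27672352 (minus), chr2:6865725-6865884 (plus), chr11:313880-314039 (plus), chr11:320861-321020 (minus) and chr1:154627998-154628157 (minus). In ISG15 a pair of matches overlapped between bases -113 and -98 from the gene start, and in IFIT1 the matches began at -116 and -103. RSAD2 held 4 copies of the shorter form, between -152 and -52. IFI6 held 3 of the longer form. IFITM1 had 1 match in the printed stretch and a further match from -6 to 4 across the gene start, and IFITM3 had 2.

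The 34 genes with an ISRE match included 22 measured genes, of which 15 were at least 2-fold lower, with a median floored log2 difference of -1.35. The 9 genes without a match included 6 measured genes, of which 1, CMPK2, was at least 2-fold lower, with a median of -0.64. Both sets of measured genes include some that reached the floor only with DMSO, such as IFITM1 with a match and CMPK2 without. The floor held HERC6 and PARP9 without a match, and DDX60 and PARP14 with one, to bounds short of 2-fold. Taken with no floor, these genes were 2.78-, 2.86-, 3.09- and 2.93-fold lower, in that order. The difference between the sets was not tested. With no floor the medians were -1.59 and -1.48, and 28 of 34 and 6 of 9 genes were at least 2-fold lower. Outside the list, 212 measured genes had a match, and 3.30% of them were at least 2-fold lower, against 2.33% of 4028 without one. Of all 5050 measured genes, 2.67% were at least 2-fold lower, and the part of the motif in the differences was not tested. Of the measured members, LAP3, with a log2 difference of 0.08, held a match.

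**Figure D2:**
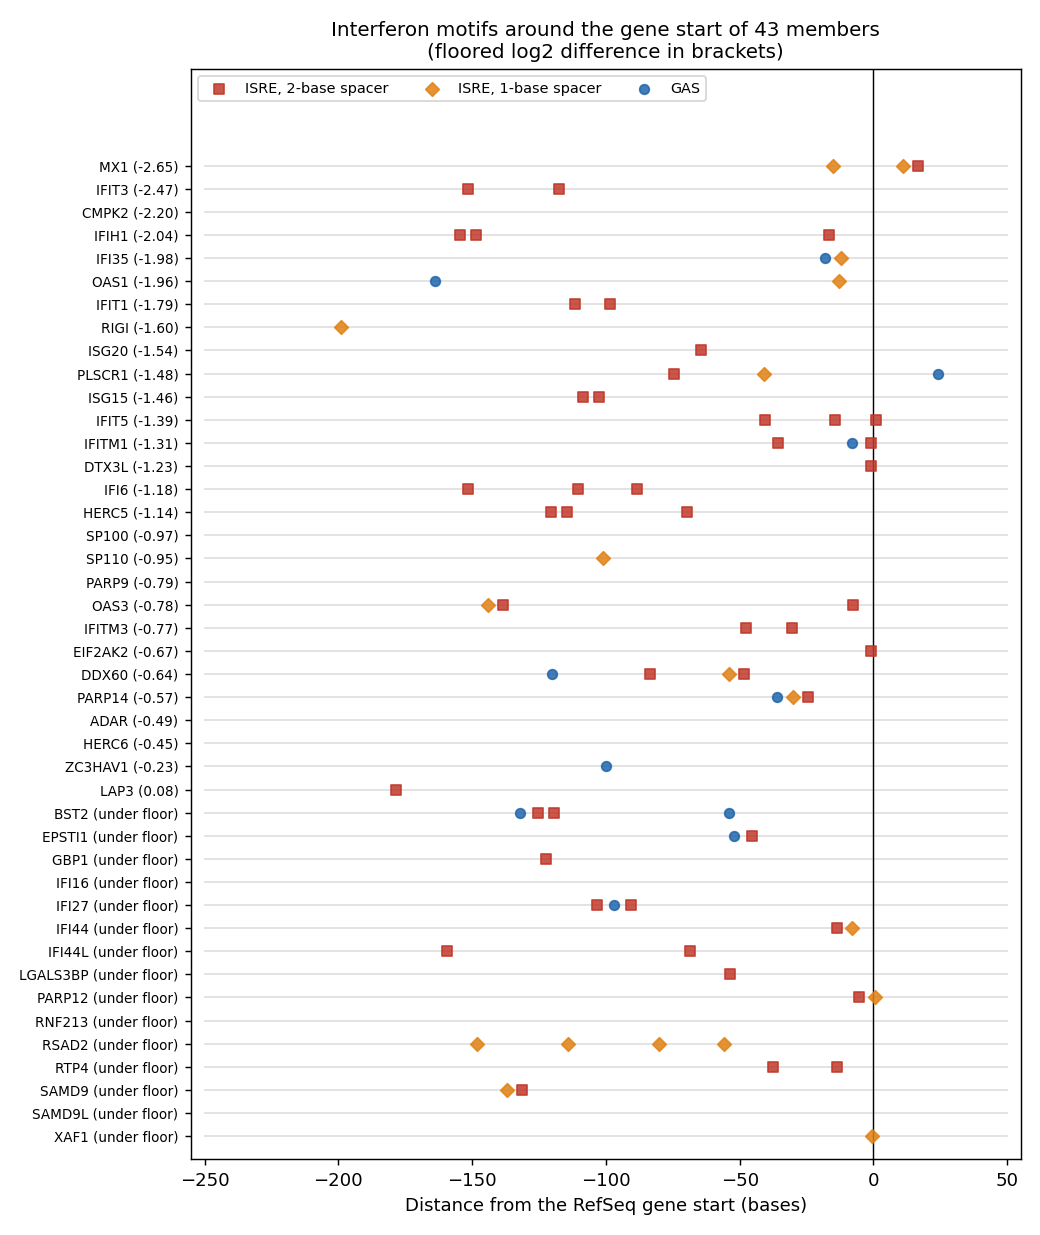
Positions of the ISRE (longer and shorter spacer) and the gamma-activated sequence (GAS) relative to the RefSeq gene start in bases, for the 43 members with a promoter sequence, with the 28 measured genes on top in the order of their floored log2 difference (in brackets, a bound where only DMSO reached the floor) and the genes under the floor below them in alphabetical order. CMPK2 (-2.20) and ADAR (-0.49) have no ISRE match in the stretch searched, and MX1 (-2.65) and LAP3 (0.08) have at least 1.

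Among the effectors, the dynamin-like GTPase MX1, which traps incoming viral nucleocapsids, had an intensity of 47.8 with analogue 3 and 301 with DMSO, or 6.29-fold lower, the largest difference of any member measured on both arrays. Its paralog MX2, which acts on nuclear import of retroviruses, was dim, with 0.70 after analogue 3 and 3.79 after DMSO.

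All 4 IFIT genes were at least 2-fold lower. Some of their products bind RNA whose 5′ end lacks the host's marks. IFIT3 had 90.0 with analogue 3 and 499.7 with DMSO, 5.55-fold lower, and its log2 differences in the 2 probe sets were -2.47 and -2.52. IFIT1, the cap sensor, had 167.5 with analogue 3 and 579 with DMSO, 3.46-fold lower. IFIT2 had 26.5 against 100.2 with DMSO, at least 3.13-fold lower. IFIT5, which binds RNA with a 5′ triphosphate, was the least different of the family, with 51.3 against 134 with DMSO, or 2.61-fold lower, and its log2 differences were -1.39 and -1.59 in its 2 probe sets. The 4 genes lie in a cluster on chromosome 10, and LIPA, the lysosomal lipase gene beside IFIT2, had 89.3 with analogue 3 and 110.6 with DMSO (log2 -0.31).

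The IFITM proteins sit in the plasma membrane and endosomes and block fusion of enveloped viruses. IFITM1 had 2.88 with analogue 3 and 79.1 with DMSO, a bound of at least 2.47-fold lower. IFITM2 had 299.9 against 532 with DMSO, 1.77-fold lower, and IFITM3 had 789.6 against 1347, 1.71-fold lower. The paralogs are close in sequence, and the probe sets of IFITM2 and IFITM3 are of the _x_at class, which can hybridise to related transcripts, so values of these 2 genes are uncertain between them. The 3 genes are neighbours on chromosome 11.

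The OAS enzymes make the oligoadenylates that activate the antiviral nuclease RNase L. OAS1 had 36.3 with analogue 3 and 141 with DMSO, 3.90-fold lower, with log2 differences of -1.96 and -2.33 in its 2 probe sets. OAS3, its neighbour on chromosome 12, differed less, with 93.9 against 161 with DMSO (1.72-fold lower, log2 -0.78 in both of its probe sets). OAS2, which follows OAS3 on the chromosome, stayed under the floor at 4.61 with analogue 3 and 19.9 with DMSO. OASL, a relative without that enzyme activity, had 9.03 with analogue 3 and 29.3 with DMSO.

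RSAD2 (viperin) converts CTP into a terminator of viral RNA synthesis, and CMPK2, a nucleotide kinase encoded beside it on chromosome 2, supplies nucleotides. CMPK2 had 18.5 with analogue 3 and 147 with DMSO, at least 4.59-fold lower, the largest bound of the members. RSAD2 had 2.82 with analogue 3 and, just under the floor, 31.7 with DMSO. Its second probe set had 1.09 with analogue 3 and 17.0 with DMSO.

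Of the genes named only as interferon-induced, IFI35, which encodes a leucine zipper protein, had 62.0 with analogue 3 and 245 with DMSO, 3.95-fold lower. IFI6, a small membrane protein that limits flavivirus replication, had 281 against 637 with DMSO, 2.26-fold lower. The DNA sensor gene IFI16 was under the floor in all 3 probe sets, with 1.89 with analogue 3 and 30.3 with DMSO in the brightest. IFI27 had 1.09 with analogue 3 and 15.0 with DMSO, and IFI44 had 2.01 with analogue 3 and 14.1 with DMSO. IFI44L was near the bottom of the scale, at 0.28 with analogue 3 and 0.58 with DMSO.

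Enzymes and factors that act on RNA spanned the range from at least 2.91-fold lower to little difference. ISG20, an exonuclease that degrades RNA, had 24.9 with analogue 3 and 93.3 with DMSO, at least 2.91-fold lower, and its other probe set had 21.8 with analogue 3 and 81.0 with DMSO. EIF2AK2, which encodes the kinase PKR that stops translation on double-stranded RNA, had 73.1 against 116.5 with DMSO, 1.59-fold lower. Its next probe set gave a log2 difference of -0.20 against -0.67 in the brightest, the widest gap of the 12 members with 2 probe sets above log2 of 3 on both arrays. The RNA-editing enzyme gene ADAR, which has an interferon-inducible and a constitutive form, had 219 against 308 with DMSO, 1.41-fold lower, and the single probe set does not separate the forms. ZC3HAV1, which binds CpG-rich viral RNA, had 53.4 with analogue 3 and 62.5 with DMSO, 1.17-fold lower, with log2 differences of -0.23, -0.09 and 0.17 in its probe sets.

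The nuclear body genes SP100 and SP110 lay just short of the 2-fold threshold in their brightest probe sets and past it in the next. SP100 had 86.3 with analogue 3 and 169 with DMSO (1.96-fold lower), with a log2 difference of -0.97 in its brightest probe set and -1.27 in the next. SP110 had 40.7 with analogue 3 and 78.5 with DMSO (1.93-fold lower). Its next probe set had 31.5 with analogue 3, just under the floor, and 63.5 with DMSO, or 2.02-fold lower with no floor. PML, the gene that organises these bodies, had 7.07 with analogue 3 and 9.00 with DMSO in the brightest of its 10 probe sets, all under the floor.

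Of the remaining effectors, PLSCR1, a phospholipid scramblase, had 187 with analogue 3 and 520.3 with DMSO, 2.79-fold lower (log2 -1.48 and -1.37 in its brighter probe sets, with the remaining one at 0.44 with analogue 3 and 0.45 with DMSO). LAP3, a leucine aminopeptidase, had 384 with analogue 3 and 364 with DMSO, a log2 difference of 0.08. All others were under the floor. Tetherin (BST2), which holds budding virions at the cell surface, had 1.83 with analogue 3 and 16.5 with DMSO. XAF1, a partner of the caspase inhibitor XIAP, had 1.58 with analogue 3 and 24.7 with DMSO, and the secreted glycoprotein gene LGALS3BP had 7.75 with analogue 3 and 29.9 with DMSO. The poxvirus restriction genes SAMD9 and SAMD9L had 5.15 and 1.08 with analogue 3, against 15.4 and 5.47 with DMSO. The guanylate-binding protein gene GBP1 had 7.84 with analogue 3 and 18.8 with DMSO, and EPSTI1 had 0.47 with analogue 3 and 4.31 with DMSO. GBP2 and RTP4, at 0.53 and 0.25 with analogue 3 and 0.53 and 0.26 with DMSO, were near the lowest values of both arrays.

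**Figure D3:**
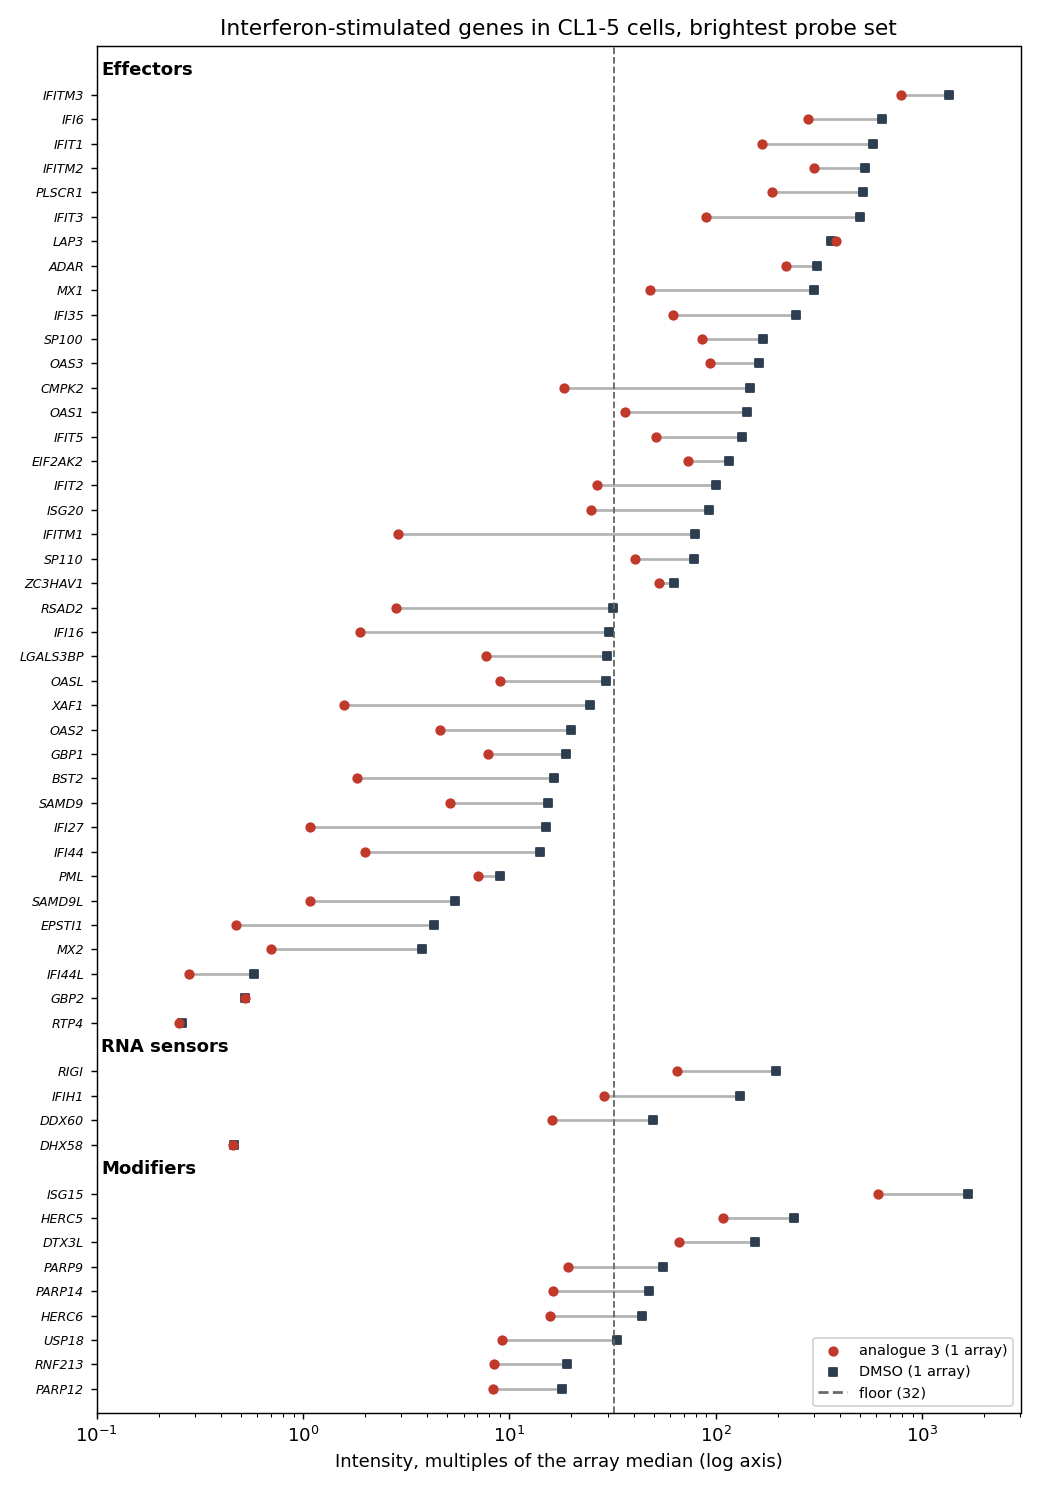
Intensity (multiples of the array median, log axis) of the brightest probe set of each of the 52 genes with analogue 3 (circles) and DMSO (squares), by role and ordered by the DMSO value; the dashed line is the floor of 32. The circle lies left of the square in 50 genes; in LAP3 and GBP2 it does not, and 21 genes lie wholly left of the line.

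The RNA sensors are helicases linked to the recognition of viral RNA in the cytoplasm, and RIGI and IFIH1 start interferon production. RIGI, which binds short RNA with a 5′ triphosphate, had 64.6 with analogue 3 and 196 with DMSO, 3.03-fold lower, and a log2 difference of -2.06 in the next probe set, against -1.60 in the brightest. IFIH1 (MDA5), which binds long double-stranded RNA, had 28.9 with analogue 3 and 131.5 with DMSO, at least 4.11-fold lower. Its other 2 probe sets were dim, at 0.40 and 1.02 with analogue 3 and 0.40 and 1.07 with DMSO. DDX60, a related helicase, had 16.2 with analogue 3 and 49.9 with DMSO, at least 1.56-fold lower. DHX58 (LGP2), a receptor of the same family, had 0.46 with analogue 3 and 0.47 with DMSO. The 3 measured sensors, 2 of them bounds, had a median floored log2 difference of -1.60, which is the value of RIGI. It was -1.31 for the 21 measured effectors, 4 of them bounds, and -0.01 for all 5050 measured genes. On both arrays RIGI was the only sensor measured, beside 17 effectors with a median of -0.97. The difference between the roles was not tested.

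Of the modifiers, 3 were measured on both arrays, with a median log2 difference of -1.23, and all 3 were at least 2-fold lower. Over the 7 measured modifiers the median floored log2 difference was -0.79. The other 4 are bounds and could enter only by being higher with DMSO. ISG15, the ubiquitin-like protein, had 609.6 with analogue 3 and 1672 with DMSO, 2.74-fold lower. HERC5, its main ligase in human cells, had 109 with analogue 3 and 239 with DMSO, 2.20-fold lower. HERC6, next to HERC5 on chromosome 4, had 15.7 against 43.7 with DMSO, at least 1.37-fold lower. USP18, which removes ISG15 and restrains the interferon receptor, had 9.25 with analogue 3 and 33.3 with DMSO, so that its bound was only at least 1.04-fold lower.

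DTX3L and PARP9 form a ubiquitin ligase complex and are neighbours on chromosome 3. DTX3L had 66.1 with analogue 3 and 155 with DMSO, 2.35-fold lower. PARP9 had 19.3 with analogue 3 and 55.3 with DMSO, at least 1.73-fold lower, and PARP14, an ADP-ribosyltransferase, had 16.2 against 47.5, at least 1.48-fold lower. PARP12, a further ADP-ribosyltransferase, had 8.37 with analogue 3 and 17.9 with DMSO. RNF213, a giant ubiquitin ligase, had 8.47 with analogue 3 and 18.9 with DMSO in the brightest of its 8 probe sets. With no floor all 9 modifiers were at least 2-fold lower, with a median of -1.46, against -1.79 for the 39 effectors and -1.61 for the 4 sensors.

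Probe sets of a gene on the same 2 arrays show the noise of the probes and hold no variation between cultures. In the 12 genes with 2 probe sets above log2 of 3 on both arrays, the brightest and the next had the same sign in 12 of 12, with a median gap of 0.20 and a largest gap of 0.47 on the log2 scale. Over all 2874 genes with 2 such probe sets, 2287 had the same sign in both, the median gap was 0.14 and the largest 1.96. Of the 25 member probe sets that reached the floor on both arrays, 24 had a log2 difference below 0, ranging from -2.65 to 0.08, where 49.0% of all 5818 such probe sets lay below 0. The 17 with 1 array at the floor reached it with DMSO only, which fixes their sign. Of the 71 under it, 62 lay below 0, where 51.2% of all such probe sets did.

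**Figure D4:**
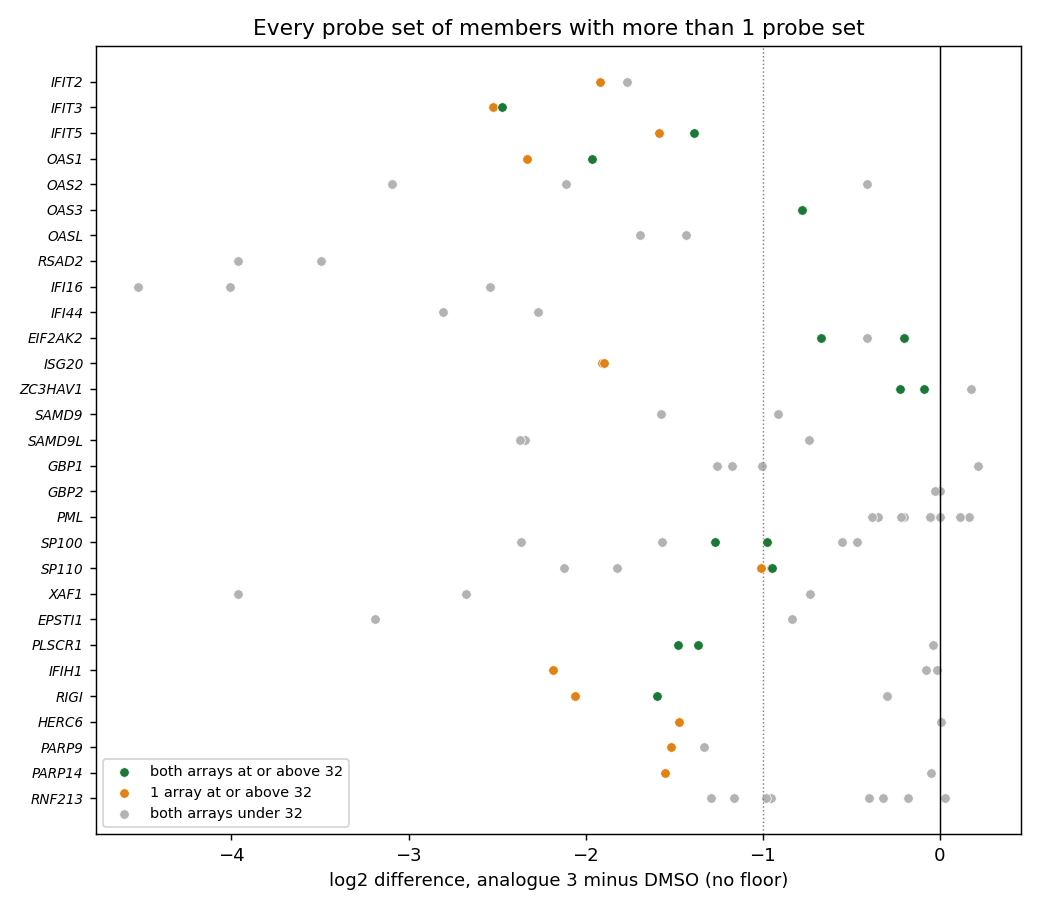
Log2 difference (analogue 3 minus DMSO, no floor) of every probe set of the 29 members with more than 1, coloured by how many arrays reach the floor of 32; the dotted line marks 2-fold. Coloured points of 1 gene lie close together, within 0.47 of each other, and grey points, under the floor on both arrays, run from -4.53 to 0.22.

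The genes that flank the members on the chromosome, in the RefSeq order of protein-coding genes (GRCh38.p14), were compared next. Of 76 flanking genes outside the list, 16 were measured, with a median floored log2 difference of -0.14, and 1 was at least 2-fold lower (6.25%, where 2.67% of all measured genes were). With no floor, 6 of the 61 with a probe set were at least 2-fold lower (9.84%, where 3.66% of all genes were) and none at least 2-fold higher, and the median of the 61 was -0.02. The 1 measured gene among the 6, DDX60L, is a paralog of its neighbour DDX60 and had 13.6 with analogue 3 and 82.9 with DMSO. GBP3, beside GBP1, had 39.5 with analogue 3 and 77.5 with DMSO (log2 -0.97). The other 5 that were lower with no floor, SLC26A11, HSPBAP1, KDM7A, PPM1K and AGRN, lay under the floor on both arrays, with 6.05 to 12.9 with analogue 3 and 14.3 to 31.7 with DMSO. RPL27, the ribosomal protein gene beside IFI35, had 2273 with analogue 3 and 2262 with DMSO. The flanking genes named here were picked out after their values were seen.

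Genes upstream in the pathway were set beside the members, with no test between the lists. All 8 interferon ligand genes with a probe set were under the floor, among them IFNB1 at 0.26 with analogue 3 and 0.27 with DMSO. Of 29 genes for receptors, kinases, STAT and IRF factors, adaptors and negative regulators, 12 were measured, with a median floored log2 difference of -0.38. Of these 12, 9 reached the floor on both arrays. In all, 1 was at least 2-fold lower and none at least 2-fold higher, where 2.67% and 3.47% of all measured genes were. IRF7, a factor that amplifies interferon production and is itself interferon-induced, had 35.2 with analogue 3 and 114 with DMSO, 3.25-fold lower. IRF9, the DNA-binding subunit of the ISRE complex, had 70.5 with analogue 3 and 118 with DMSO, 1.68-fold lower. STAT3 had 46.6 with analogue 3 and 62.1 with DMSO, a log2 difference of -0.41 in the brightest probe set and -0.12 in the next. IRF1, IRF2, IRF3 and IRF5 were under the floor on both arrays.

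The receptor chain genes IFNAR1 and IFNAR2 were under the floor, with 7.51 and 19.5 with analogue 3 and 9.07 and 18.0 with DMSO. The interferon-gamma receptor genes IFNGR1 and IFNGR2 were 1.54- and 1.59-fold lower. MAVS, the adaptor of the RNA sensors, had 26.4 with analogue 3 and 48.6 with DMSO, at least 1.52-fold lower, while the kinase gene TBK1 had 43.5 with analogue 3 and 42.0 with DMSO. SOCS3, a feedback inhibitor, had 37.3 with analogue 3 and 27.5 with DMSO. MHC class I and peptide loading genes, also interferon-inducible, had a median floored log2 difference of -0.67 over 10 measured genes. All 10 lay below 0, where 2599 of the 5050 measured genes did. TAP2, at 29.2 with analogue 3 and 41.8 with DMSO, reached the floor with DMSO only, which fixes its sign. TAP1 (2.23-fold) and HLA-E (2.01-fold), 2 of the 10, were at least 2-fold lower, where 2.67% of all measured genes were.

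**Figure D5:**
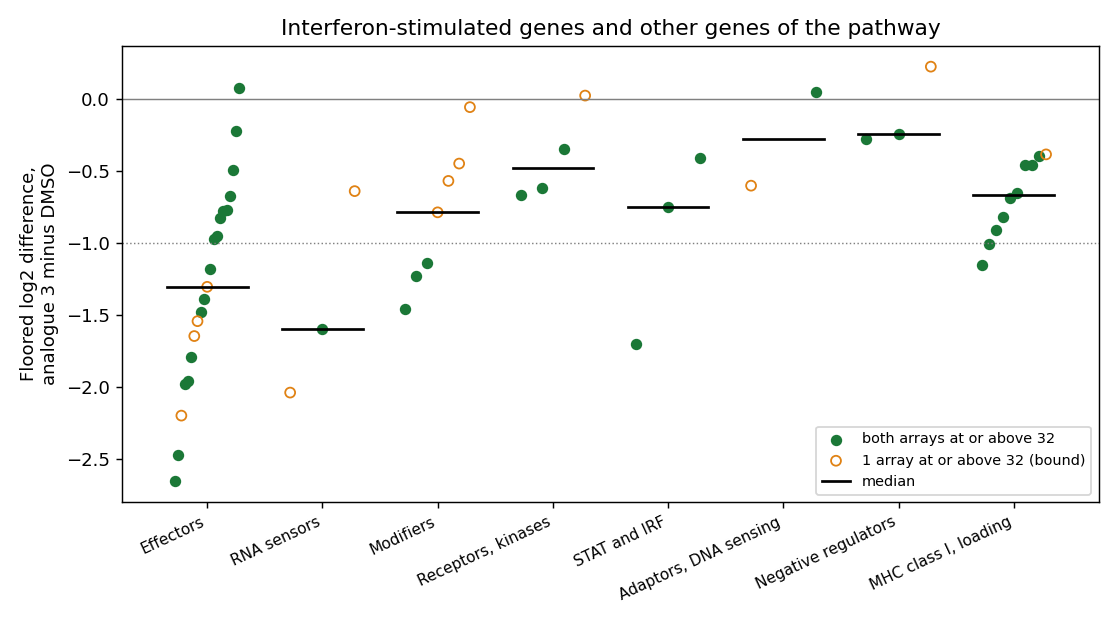
Floored log2 difference (analogue 3 minus DMSO) of each measured gene by role and pathway list; filled points reach the floor on both arrays, open points on 1 array only and are bounds, and bars are medians. Effectors, sensors and modifiers have medians of -1.31, -1.60 and -0.79, which include bounds. Over genes at the floor on both arrays the medians are -0.97, -1.60 (1 gene) and -1.23, so the order of effectors and modifiers depends on the bounds. IRF7 (-1.70) is the lowest point of the other lists.

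The marker genes fixed for CL1-5 and for other cells were as follows. VIM had 1868 with analogue 3 and 1883 with DMSO and KRT18 had 458 with analogue 3 and 461 with DMSO, while KRT8 had 77.8 with analogue 3 and 42.3 with DMSO. KRT19 and KRT7 were under the floor, at 5.23 and 2.65 with analogue 3 and 2.24 and 1.92 with DMSO. The epithelial markers EPCAM and CDH1 were near the bottom of the scale on both arrays, with EPCAM at 0.34 and CDH1 at 0.54 with analogue 3, against 0.35 and 0.41 with DMSO. Markers of differentiated lung epithelium, 5 of 6 with a probe set, summed to 12.4 with analogue 3 and 9.52 with DMSO, and all were under the floor. Leukocyte markers, 8 of 10 with a probe set, summed to 4.25 with analogue 3 and 4.89 with DMSO, and none exceeded 1.25. Fibroblast and endothelial markers (8 genes) summed to 26.0 with analogue 3 and 20.0 with DMSO, with PECAM1 the highest at 15.7 with analogue 3 and 11.4 with DMSO. In the control probe sets of GAPDH the 3′ signal was 1.18 times the 5′ signal with analogue 3 and 1.21 times with DMSO. For ACTB these ratios were 10.0 with analogue 3 and 11.8 with DMSO. The part of RNA quality in the differences was not tested.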

How the data were processed

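RNA of CL1-5 cells was biotin-labelled and hybridised to Affymetrix U133 Plus 2.0 arrays, 1 per group, per the labels' protocols. The authors deposited 1 linear intensity for each of 54675 probe sets per array. Per the submitters' processing notes the tool was GCRMA; its version is not given in the sources. Each column had a median of 1, from which a scaling to the array median is inferred; no label states it. Gene names came from GEO's platform annotation, which gave 41097 probe sets 1 gene and 1801 several and left 11777 unnamed, and 41043 were matched to RefSeq (GRCh38.p14) by gene number. A floor of log2 of 5 is strict on this scale, since 13.1% of probe sets reached it with analogue 3 and 13.4% with DMSO. Differences were computed with Python 3.11.15, numpy 2.4.6 and pandas 2.3.3. The procedure was also run on simulated data whose noise was the spread between probe sets on these 2 arrays. That run holds no variation between cultures, so it cannot show how the counts would vary between cultures. Loess removal used statsmodels 0.14.6 with a span of 0.3. Every member was named; of other pathway lists, genes at least 2-fold different and the STAT and IRF factors, while further genes there were picked with their values in view. The members, lists, motifs and printed sequences were chosen with earlier results of these data known. With 2 arrays, precision is limited by their number. Alternatives are given at the end.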

Additional observations from a re-analysis of the deposited data

How the results depend on the processing

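Every alternative left the medians below 0 and 0 members at least 2-fold higher, and the floor moved the values most. The number of members at least 2-fold lower, 17 of 31, was 37 of 48 with a floor of log2 of 1, 32 of 45 with log2 of 3, 6 of 20 with log2 of 7 and 39 of 52 with no floor, and 9 of 31 passed a 3-fold threshold; of all genes 5.25%, 3.92%, 1.97%, 3.66% and 0.67% did so, in the same order. The median over members, -1.18, was -1.53, -1.46, -0.69 and -1.56 under those floors in the same order. The effector median, -1.31, was -1.64 with log2 of 1, -0.77 with log2 of 7, -1.79 with no floor and -0.97 over genes at the floor on both arrays. The sensor median, -1.60, was -0.33 over 2 genes with log2 of 7 and -0.88 over 2 genes with the median of probe sets. The modifier median, -0.79, was -1.46 with log2 of 1, with log2 of 3 and with no floor, -1.18 over 4 genes with the median of probe sets, -0.57 over 5 genes without _s_at and _x_at probe sets, and -1.23 over 3 genes at the floor on both arrays. A filter on a mean log2 level of at least 5 with no floor, chosen, like that on both arrays, after seeing the data, gave -1.42 over 26 members, -1.89 over 2 sensors and -1.34 over 4 modifiers. A higher floor shrinks the bounds of dim genes by construction. Centring, quantile normalization and loess removal moved each of these medians by less than 0.17, the SD of 1 probe set over 1127 genes with 2 that reach the floor on both arrays. No paired analysis was possible because each group has 1 array. Dim probe sets limit what can be said of the 21 members under the floor.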

Other observations

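A probe set annotated to both IFITM2 and IFITM1, left out because it names more than 1 gene, had an intensity of 5.61 with analogue 3 and 95.2 with DMSO. The single-gene probe set of IFITM1 had 2.88 with analogue 3 and 79.1 with DMSO, and those of IFITM2 and IFITM3 gave log2 differences of -0.83 and -0.77.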
